A study of Mus musculus with 6 samples.

Results

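The oocyte of a growing follicle secretes growth factors that act on the granulosa cells around it, and 5 genes of this kind were examined in secondary follicles of the mouse ovary: Gdf9, Bmp15, Bmp6, Fgf8 and Oosp1. They were taken by gene symbol as known factors of the oocyte, with earlier results of these data known, and all 5 were measured, by 7 probe sets, among the 18193 genes and 34945 probe sets that had a single gene symbol. RNA came from female C57BL/6J mice that were obtained as specific pathogen-free. There were 3 samples from young mice (9 weeks) and 3 from old mice (32 weeks), and the labels name no allele or treatment in either group. From virus and interferon response genes higher in the old group, the paper proposes that its mice might have been infected with viruses. This was not tested here. Follicles were freed from the ovary mechanically with needles, and 1 Affymetrix array, whose probes lie toward the 3' end of each transcript, was hybridised per sample. The labels call the samples biological replicates. The sources used here do not say how many mice or follicles stood behind each one, and every p-value measures the spread between these samples. A whole follicle holds an oocyte, granulosa cells and some theca, and in such bulk RNA fewer cells of a type cannot be told apart from less RNA per cell.

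GDF9 and BMP15 are closely related members of the transforming growth factor beta family that are made almost only by the oocyte. Both are cut from larger precursors and bind the receptor BMPR2 on granulosa cells. GDF9 then acts through TGFBR1 and the proteins SMAD2 and SMAD3, and BMP15 through BMPR1B and the proteins SMAD1 and SMAD5. In mice, follicles without GDF9 stop growing at the primary stage, so the secondary follicle is a stage that depends on this signal. BMP6 is a further ligand of the BMP receptors. FGF8 is a fibroblast growth factor of the oocyte that, with BMP15, promotes glycolysis in mouse cumulus cells, the granulosa cells next to the oocyte. OOSP1 is a small protein that the oocyte secretes.

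In mice, oocyte genes such as these are switched on by FIGLA, which binds E-boxes (CANNTG), and by the homeobox protein NOBOX, whose sites hold TAATTA or TAATTG. Both factors were measured on the same arrays, so the 250 bases before the start of the members are shown to let these letters be seen. RefSeq promoters (GRCm38.p6) were matched for 3 of the 5 members, Bmp15, Bmp6 and Oosp1. Capitals mark every E-box, TAATTA and TAATTG on either strand, and no 2 matches overlapped.
Bmp15 promoter, chrX:6320725-6320974, minus strand: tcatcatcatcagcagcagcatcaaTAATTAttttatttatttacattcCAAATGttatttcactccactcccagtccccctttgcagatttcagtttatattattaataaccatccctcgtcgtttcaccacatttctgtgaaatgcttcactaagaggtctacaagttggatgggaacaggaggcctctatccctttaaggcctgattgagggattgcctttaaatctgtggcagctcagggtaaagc
Bmp6 promoter, chr13:38345466-38345715, plus strand: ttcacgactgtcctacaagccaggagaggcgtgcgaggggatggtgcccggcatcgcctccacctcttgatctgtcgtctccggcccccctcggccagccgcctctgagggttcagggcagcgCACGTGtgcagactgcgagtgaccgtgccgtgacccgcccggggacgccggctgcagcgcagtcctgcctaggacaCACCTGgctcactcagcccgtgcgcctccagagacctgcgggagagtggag
Oosp1 promoter, chr19:11691052-11691301, minus strand: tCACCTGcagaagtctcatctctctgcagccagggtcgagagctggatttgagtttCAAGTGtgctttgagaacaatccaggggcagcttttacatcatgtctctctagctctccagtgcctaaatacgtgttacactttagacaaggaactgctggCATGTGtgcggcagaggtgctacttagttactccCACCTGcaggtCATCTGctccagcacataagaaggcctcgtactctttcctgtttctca
The Oosp1 window held 5 E-boxes, the Bmp6 window 2 and the Bmp15 window 1, and 66.2% of 32851 promoters of this length held at least 1. TAATTA was present once, in the Bmp15 window, against 4.8% of all promoters, and TAATTG in none of the 3 windows, against 7.2%. These are matches of letters and no binding was measured.

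Fgf8, Bmp15 and Gdf9 were lower in the follicles of the old mice, while Oosp1 and Bmp6 did not pass the test. Values are log2 of the deposited intensity, and old samples were tested against young samples with limma, with Benjamini-Hochberg adjustment across the 18193 genes. The brightest probe set stood for a gene that had several. With a limit of 0.05 on the adjusted p and none on the fold, 3 of the 5 members were lower and none was higher. The same rule called 13.3% of all genes lower (2422 genes) and 10.1% higher. At the paper's additional limit of a fold of at least 2, limma called 0 of the 5, with 3 lower at an unadjusted p under 0.05, while 0.126% of all genes were lower and 0.638% higher by both rules. The median log2 fold change of the 5 members was -0.20, against -0.0042 over all genes. All 5 members lay above the median of all probe sets. With the genes below it filtered out, the median over the genes left was -0.047, and 3084 of these were called lower. That is more calls among fewer genes, so the share called lower among genes as bright as the members was above 13.3%.

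Fgf8 had the largest decrease of the 5. The young arrays read 7.98, 7.87 and 7.86 for Fgf8, and the old arrays 7.23, 7.26 and 7.12 (log2 intensity). Every old sample lay well below every young sample, and the gap between the ages was far wider than the spread within either. Fgf8 thus went from 7.90 ± 0.062 to 7.20 ± 0.074 (SD, n = 3 each). Its log2 fold change was -0.70 (standard error 0.06, 95% confidence interval -0.85 to -0.55, adjusted p = 5.2e-04 from limma), which left 61.5% of the young level. Only 0.665% of all genes had a lower fold change. The 1 probe set of Fgf8 carries the mark for probes that are shared by several transcripts of a gene, so its isoforms were not told apart.

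Bmp15 decreased to a like extent, but less evenly. Its brightest probe set read 8.16, 8.09 and 8.06 on the young arrays, against 7.68, 7.17 and 7.55 on the old arrays. The ages did not overlap, and old replicate 2 stood lower than the other old samples. The level went from 8.10 ± 0.049 to 7.47 ± 0.26 (SD, n = 3 each). The log2 fold change was -0.63 (standard error 0.12, 95% confidence interval -0.92 to -0.35, adjusted p = 0.011 from limma), which left 64.4% of the young level. Without old replicate 2 the change was -0.49 with an adjusted p of 0.0076 from limma. Of the 7 probe sets of the members, 4 were called lower in the fit over all probe sets, where 13.8% of 34945 were lower and 8.95% higher. Bmp15 had 3 of the 7, and 2 of them were called. The second in brightness read 7.15, 7.08 and 6.96 on the young arrays, against 6.20, 6.58 and 6.36 on the old arrays. It changed by -0.68 (standard error 0.10), with an adjusted p of 0.0037 from limma over probe sets. Here old replicate 2 was the highest of the old samples, the reverse of its place on the brightest probe set. The dimmest ranged from 5.62 to 6.02 in the young and from 5.52 to 5.67 in the old samples, with overlap, and its change of -0.19 was not called (adjusted p = 0.23 from limma). The brightest probe set bears the mark for probes that can match several transcripts, while the other 2 do not.

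Gdf9 was lower by a small amount. For Gdf9 the young arrays read 12.26, 12.25 and 12.25, and the old arrays 12.04, 12.10 and 12.04. The young samples were almost the same, and all old samples lay below them. The level went from 12.26 ± 0.0064 to 12.06 ± 0.034 (SD, n = 3 each). The fold change on the log2 scale was -0.20 (standard error 0.05, 95% confidence interval -0.31 to -0.08, adjusted p = 0.026 from limma), which left 87.2% of the young level. A lower fold change was found in 16.9% of all genes. The call did not hold when any 1 of young replicates 1, 2 and 3 or old replicates 1 and 3 was left out, with an adjusted p from 0.053 to 0.087 from limma, although the change itself stayed between -0.22 and -0.19.

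Oosp1 and Bmp6 showed no change that passed the test. Oosp1 read 12.21, 12.18 and 12.14 on the young arrays, and 12.08, 12.06 and 12.12 on the old arrays. The old values were just below the young values without overlap, as they were in 4 of the 5 members, and 23.7% of all genes were lower without overlap. The log2 fold change of Oosp1 was -0.09 (standard error 0.05, 95% confidence interval -0.21 to 0.03, adjusted p = 0.24 from limma). Bmp6 read 8.45, 8.42 and 8.33 on the young arrays, and 8.38, 8.51 and 8.45 on the old arrays. Its groups overlapped, with a change of 0.05 (standard error 0.06, 95% confidence interval -0.09 to 0.19, adjusted p = 0.57 from limma). These intervals leave room for small changes in either gene, but not for one as large as that of Fgf8.

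**Figure D1:**
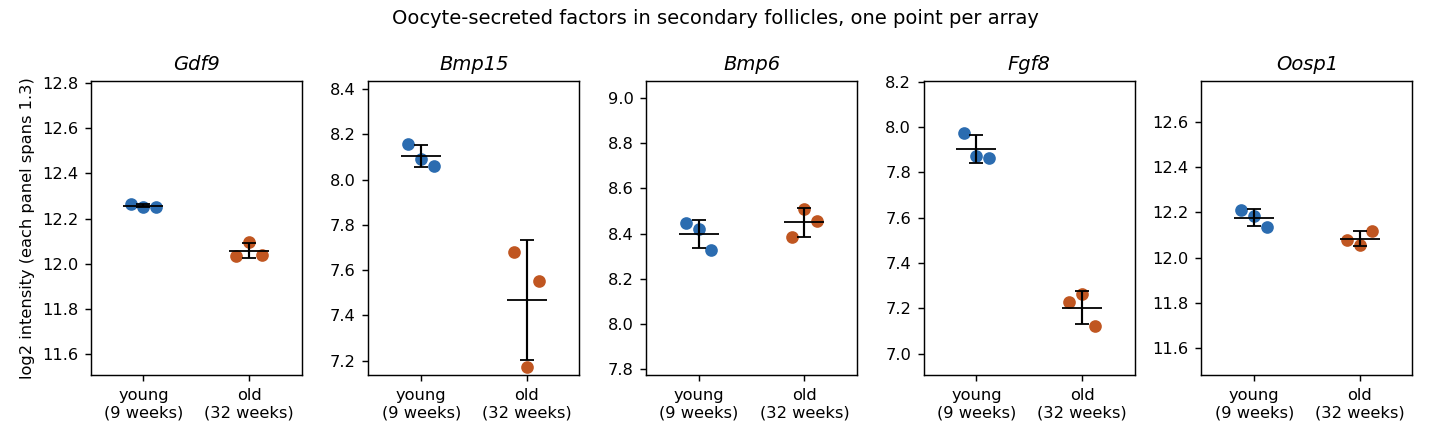
Log2 intensity (vertical axis) of the 5 factors on the 3 young and 3 old arrays, with 1 point per array, a line at the mean and bars for the SD. Each panel has its own range of the same width, and the old points lie clearly below the young points for Fgf8, Bmp15 and Gdf9, slightly below for Oosp1 and among them for Bmp6.

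The measured changes of the 5 factors differed in size. The difference between the changes of 2 genes can be read as the change of their ratio on the same array, and all 10 pairs were compared. The change of Fgf8 was 0.50 below that of Gdf9 and 0.61 below that of Oosp1, and the change of Bmp15 was 0.44 and 0.54 below theirs (log2 scale). Bmp6 was above Gdf9 by 0.25 and above Oosp1 by 0.14 in its change. In each of these pairs, and in 9 of the 10 pairs in all, the ratios of old and young samples did not overlap. A two-sided exact permutation test of each gave p = 0.1, and 0.11 after adjustment over the 10 pairs. With 3 samples against 3 no lower p is possible, so this test cannot decide whether the changes of a pair differ. The exception was Bmp15 with Fgf8, whose changes differed by 0.07 with overlapping ratios (exact permutation test, p = 1). In that pair the SD of the ratio was 0.31 among the old samples, so their changes are not shown to be equal. The 10 pairs share 5 genes and are not separate results, and the share of all gene pairs without overlap was not computed. Whether the brightness of a probe set affected the size of its change was not tested.

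Other oocyte genes were lower on the same arrays. Of 16 oocyte markers, 14 had a probe set of their own, and 12 of these were lower, none was higher and 2 were not called. Their median log2 fold change was -0.30, and their summed intensity ran from 34559 to 36163 on the young arrays and from 29050 to 29764 on the old arrays, with no marker dim, that is, below the median of all probe sets. Zp3, which encodes a protein of the zona pellucida, changed by -0.54 (standard error 0.05, adjusted p = 7.5e-04 from limma). The germ cell RNA helicase gene Ddx4 changed by -0.53, and Kit, the receptor on the oocyte for the granulosa cell ligand KITL, by -0.49 on its brightest probe set and by -0.24 with the dim other one averaged in. On the brightest probe set of each gene, the changes of Fgf8 and Bmp15 were below those of all 14 markers. That of Gdf9 was above 11 of them, that of Oosp1 above 13 and that of Bmp6 above all 14. The marker Dazl, at -0.34 there, had a second probe set almost as bright in the young samples (9.27 against 9.44). It changed by -0.74 (adjusted p = 0.0015 from limma over probe sets), below Fgf8 and Bmp15. On its brightest probe set the place of Bmp15 rested on old replicate 2, without which Bmp15 was at -0.49, Zp3 at -0.55 and Kit at -0.50. The second Bmp15 probe set in brightness, where old replicate 2 was the highest old sample, was at -0.68 with all samples.

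Set against the mean of the oocyte markers on the same array, the factors parted into 2 directions. Fgf8 stood at -2.93, -2.98 and -2.99 relative to the markers on the young arrays, against -3.36, -3.31 and -3.44 on the old arrays. Its old ratios were all lower, by 0.40 on average on the log2 scale. Bmp15 was lower by 0.33, but its old ratios of -2.91, -3.40 and -3.00 were wide apart while the young ratios were -2.75, -2.76 and -2.80, and without old replicate 2 the difference was -0.19. Relative to the same markers, Gdf9 was higher in the old samples by 0.10, Oosp1 by 0.21 and Bmp6 by 0.35. None of the 5 ratios overlapped between the ages, and p was 0.1 for each (exact permutation test, two-sided, with no smaller p possible in this design). The mean of the markers itself changed by -0.30 without overlap, so a gene with a flat level would also stand higher on this reference. The share of all genes whose ratios to it did not overlap was not computed. The size of these shifts depended on the reference. Against the median of the oocyte markers, Gdf9 was at 0.02 with overlapping groups. Against the mean of 11 granulosa cell markers, which itself moved by 0.02, the changes of Gdf9, Bmp15, Fgf8, Oosp1 and Bmp6 were -0.22, -0.65, -0.72, -0.11 and 0.03, so that Gdf9 and Oosp1 stood below 0 on this reference. Each marker entered that mean by its brightest probe set. Dimmer probe sets of Nr5a2 (-0.32), Inhbb (-0.62), Gja1 (-0.68) and Foxl2 (-0.28) were called lower in the fit over probe sets. A further dim one of Gja1 was called higher (0.22).

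**Figure D2:**
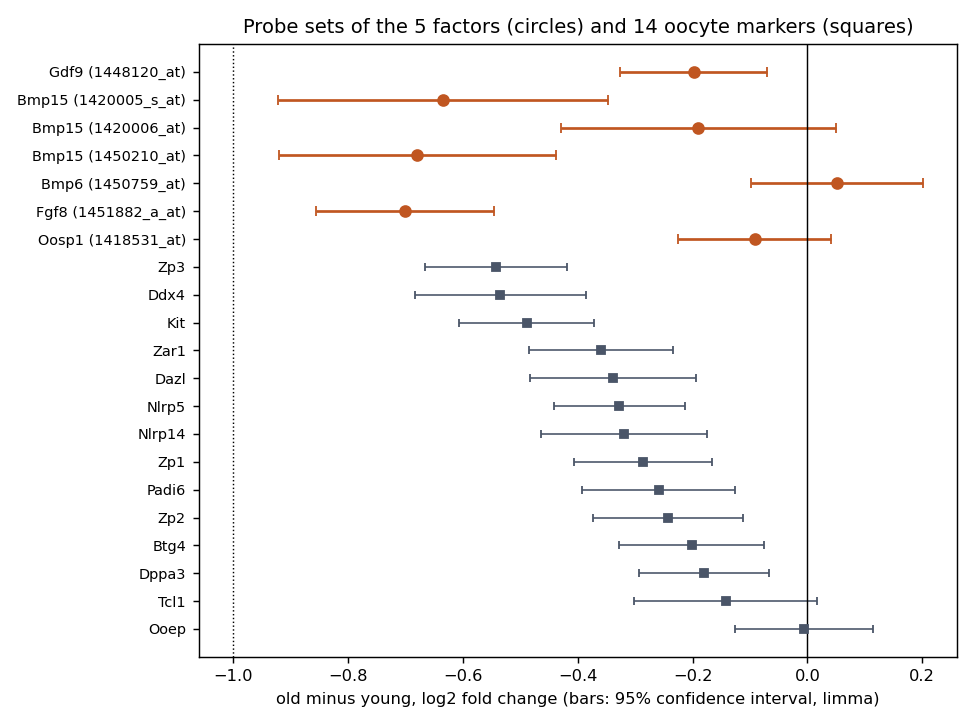
Log2 fold change of old over young (horizontal axis) for the 7 probe sets of the factors, fitted over all probe sets, and for the 14 oocyte markers, fitted over all genes, with 95% confidence intervals from limma. The dotted line marks a fold of 2 and the solid line no change. Each marker is shown by its brightest probe set only, and Fgf8 and 2 of the 3 Bmp15 probe sets lie left of all of these.

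**Figure D3:**
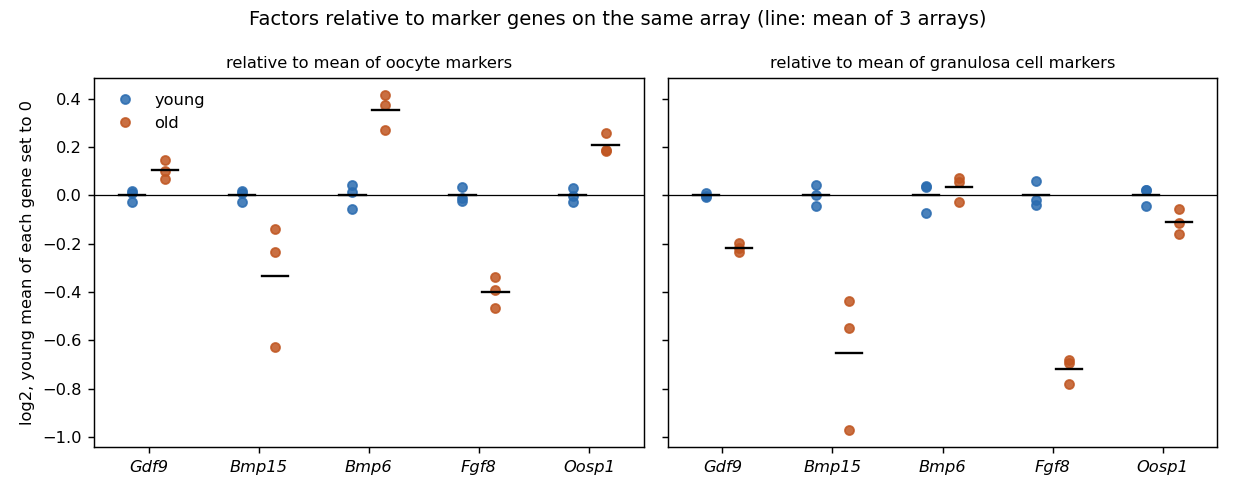
Each factor relative to the mean of the oocyte markers (left) or of the granulosa cell markers (right) on the same array, on a log2 scale with the young mean of each gene set to 0, and 1 point per array. Fgf8 and Bmp15 lie below 0 in the old samples on both references, while Gdf9 and Oosp1 lie above 0 on the left and below 0 on the right.

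Markers of other cells and of RNA quality also differed between these arrays. All 5 ovarian surface epithelium markers were higher, with Krt7 at 1.63, and their summed intensity ran from 171 to 183 in the young and from 324 to 363 in the old samples, with Krt7 and Msln dim. Of 14 macrophage and immune markers, 11 were higher and 1 was lower, Lyz2 (-0.32), with sums from 503 to 518 and from 845 to 891 and Adgre1, Cd68 and Ptprc dim, and of 6 smooth muscle markers 3 were higher and 1 lower, with sums from 917 to 999 and from 1377 to 1400. Of 8 endothelial markers, 3 were higher and 1 lower, with sums from 320 to 325 and from 372 to 411. Of 4 measured theca markers, 2 were higher, with sums from 3472 to 3535 and from 3843 to 3890. Of 11 granulosa cell markers, 2 were higher and 1 lower, with sums from 34463 to 35975 and from 36207 to 36865. The 3' minus 5' value of the Gapdh control probe sets, which grows as RNA or its copies become shorter, was higher in the old samples, at 1.51 against 0.47, and so was that of beta-actin, at 2.53 against 1.48 (log2 scale), and neither overlapped (exact permutation test, p = 0.1 each). The part of these differences in the changes of Fgf8, Bmp15 and Gdf9 was not tested, and the place of the member probe sets within their transcripts was not analysed here.

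Some relatives and regulators of the factors were lower as well. Oosp3, a gene of the same family as Oosp1, fell by 0.27 (standard error 0.05, adjusted p = 0.0071 from limma), while Oosp2 was at -0.11 and was not called. Of 7 transcription factors of the oocyte, 3 were lower, none was higher and 4 were not called. Lhx8, a LIM homeobox gene, was at -0.25, Figla at -0.26, and Taf4b, a subunit of the general transcription factor TFIID in germ cells, at -0.28, while Nobox was at -0.11 and was not called (adjusted p = 0.19 from limma). Figla and Taf4b were no longer called after quantile or cyclic loess normalization, and Taf4b also not with its probe sets averaged.

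Most receptors for these ligands were not called, as was the case for most genes. Of 9 BMP and TGF-beta receptors, 1 was lower, the activin receptor gene Acvr2a (-0.29, with a standard error of 0.07 and an adjusted p of 0.026 from limma), and 8 were not called, with a median of -0.16, while 13.3% of all genes were lower. Acvr2a was not called after quantile or cyclic loess normalization. Bmpr2, the shared receptor of GDF9 and BMP15, read 11.34, 11.47 and 11.53 on the young arrays and 11.49 on all 3 old arrays, a change of 0.04. Bmpr1b was at -0.01, Tgfbr1 at -0.22 and Bmpr1a at -0.17, and none was called. Of the 6 probe sets of Bmpr1a, however, 2 dimmer than its brightest were called lower, at -0.93 (adjusted p = 3.5e-04 from limma over probe sets) and -0.28, and so was 1 of the 3 probe sets of Acvr2b (-0.49). Of 5 FGF receptors, Fgfrl1, which lacks the kinase domain, was higher (0.31, not called with probe sets averaged) and Fgfr1 was lower (-0.27). The call of Fgfr1 rested on a probe set shared between transcripts, and its unshared probe set, which was dim, went the opposite way (0.23). A further dim probe set of Fgfr1 was at -0.11 and was not called. Of 8 SMAD genes, 3 were lower and none was higher: Smad2 (-0.34, standard error 0.05), Smad1 (-0.23) and the inhibitory Smad6 (-0.27). Smad2 was at -0.01 on its unshared probe set, and Smad1 and Smad6 were not called after quantile or cyclic loess normalization. Dimmer probe sets of Smad4 (-0.51), Smad5 (-0.27) and Smad1 (-0.62) were called lower in the fit over probe sets. Further probe sets of Smad4 (0.18) and Smad1 (0.19) went the opposite way and were not called.

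The enzymes that cut such precursors and the proteins that hold the ligands away from their receptors changed in both directions. Of 10 measured genes of this kind, 3 were higher, 3 were lower and 4 were not called. The proprotein convertase genes Pcsk5 and Pcsk6 went opposite ways. Pcsk6 read 9.20, 9.27 and 9.20 on the young arrays and 8.67, 8.58 and 8.57 on the old arrays, lower by -0.62 with an adjusted p of 5.3e-04 from limma. Pcsk5 read 8.29, 8.28 and 8.33 on the young arrays and 8.95, 8.94 and 9.01 on the old arrays, higher by 0.67 with an adjusted p of 2.5e-04 from limma. That probe set is shared between transcripts, and on its brightest unshared probe set, which was dim, Pcsk5 was at 0.18 and was not called. A dimmer unshared probe set was called higher (0.45), and a further one was at 0.26 and was not called. The Pcsk5 probe set second in brightness, which is also shared and was not dim, was at 0.14 and was not called. Grem1, a BMP antagonist that GDF9 induces in cumulus cells, was higher by 0.38, and Fst, which encodes the activin-binding follistatin, by 0.21, while the other Fst probe set was at -0.13. The BMP-binding genes Twsg1 and Nog were lower, by -0.34 and -0.50, with Nog dim and Twsg1 at 0.04 on its brightest unshared probe set, which was dim.

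Genes known to respond to the factors changed in both directions. Of 9 measured FGF target genes, 4 were lower, none was higher and 5 were not called, with a median of -0.05. The lower genes were the transcription factor gene Etv5 (-0.65, standard error 0.09), whose probe set was dim and was not called with its probe sets averaged, and 3 inhibitors of the pathway, Spry1 (-0.57, standard error 0.08), Spred2 (-0.30) and Il17rd (-0.27). The calls of Spred2 and Il17rd were also lost with probe sets averaged. Spry1 ranged from 7.81 to 8.12 on the young arrays and from 7.39 to 7.42 on the old arrays, without overlap. Spry2 (0.21) and Dusp6 (0.13) were higher without overlap but were not called. In the fit over probe sets, a dimmer probe set of Spry4 was called higher (0.43) and another lower (-0.37). A dimmer probe set of Spred1 was called lower (-0.21). Of 7 BMP and SMAD target genes, Id4 (0.45) and Bambi (0.30), which encodes a decoy receptor, were higher and Smad6 was lower, and 4 were not called. Of 10 measured granulosa cell genes that oocyte factors control in mice, 3 were higher, 1 was lower and 6 were not called. Star (1.87, standard error 0.06, adjusted p = 4.0e-06 from limma) and Cyp11a1 (1.34, standard error 0.06, adjusted p = 2.3e-05), which carry cholesterol into mitochondria and convert it to pregnenolone, were the only 2 past a fold of 2, and oocyte factors are known to hold them down. All 3 Star probe sets were called higher, from 1.18 to 1.88, but the other 2 of Cyp11a1 were at 0.05 and 0.04 with overlap, and with its probe sets averaged Cyp11a1 was at 0.48. Both are also theca markers, and the other 2 measured theca markers, Cyp17a1 (-0.11) and Hsd3b1 (0.04), were not called. Kitl, the granulosa cell ligand of the oocyte receptor KIT, fell by 0.43 (standard error 0.05, adjusted p = 0.0019 from limma), and of its 4 probe sets 3 were called lower, while the dimmest was at -0.52 with overlap. The cumulus expansion genes Has2, Ptgs2, Ptx3 and Tnfaip6 were all dim and not called.

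Metabolic genes that oocyte factors promote in mouse cumulus cells were called higher more often than lower. Of 10 cholesterol synthesis genes, 6 were higher, 1 was lower, Fdps (-0.37), and 3 were not called, with a median of 0.27. The share of all genes called higher was 10.1%. Idi1 was higher by 0.39 (standard error 0.05), Cyp51 by 0.42 and Lss by 0.40. Hmgcs1 was higher by 0.43 on its brightest probe set, but its other 4 probe sets ran from -0.78 to 0.46. Of 5 measured glycolysis genes, Pfkp was higher (0.36, with an adjusted p of 0.0048 from limma, and not called with probe sets averaged) and 4 were not called, among them Pkm (0.17) and Aldoa (0.15).

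**Figure D4:**
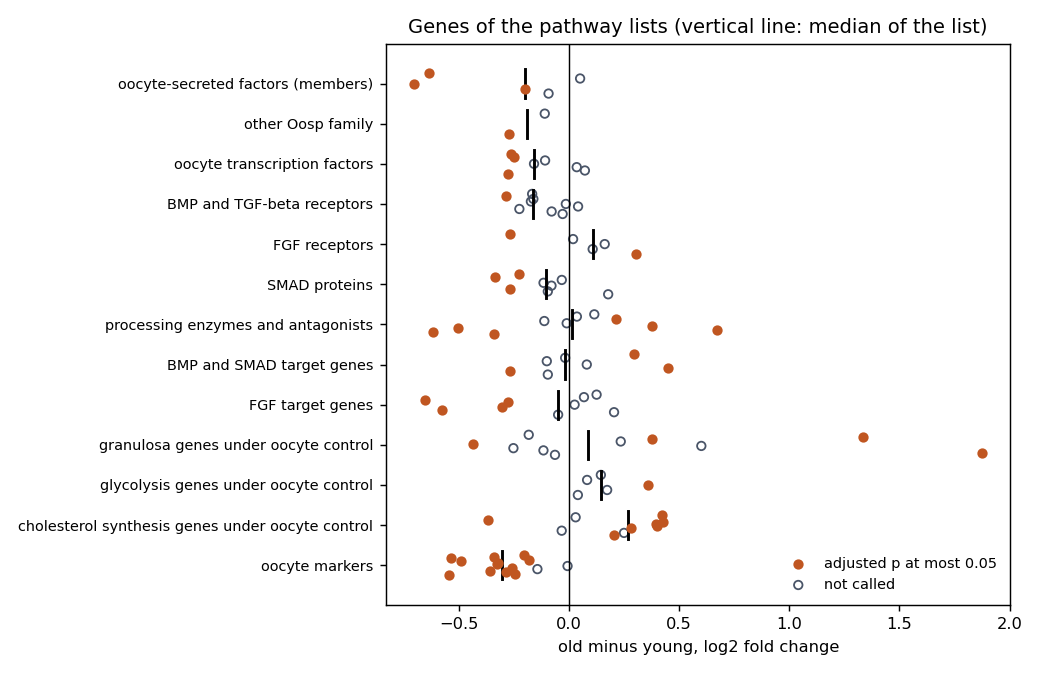
Log2 fold change of old over young (horizontal axis) for the genes of each list, with filled points at an adjusted p of at most 0.05 from limma, open points for genes not called and a vertical line at the median of the list. The oocyte markers lie left of 0, the median of the cholesterol synthesis genes lies at 0.27, and Star and Cyp11a1 stand apart on the right.

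The genes with the most like pattern were found by the root mean square difference of log2 values over the 6 arrays, after each gene was centred on its own mean. For Fgf8 these were Vps50 (0.019), Jagn1 (0.026) and Ccdc8 (0.033), and 157 genes lay within 0.1. For Bmp15 they were Emx2 (0.051), Strn3 (0.072) and Ubxn2b (0.075), and 7 genes lay within 0.1. The changes of these 6 genes ran from -0.74 for Jagn1 to -0.56 for Emx2, but Vps50 was at 0.08 on its brightest unshared probe set. Gdf9 was closest to Hspd1 (0.014), the oocyte marker Dppa3 (0.014) and Haus3 (0.014), with 4946 genes within 0.1. Oosp1 was closest to Isoc1, Dcaf1 and Taok2 and Bmp6 to Ppp3r1, Fastkd1 and Oxct1, with 6467 and 5887 genes within 0.1, so a flat profile was common and these names say little. Among the members themselves, Gdf9 and Oosp1 were the closest pair (0.067) and Bmp15 and Bmp6 the farthest (0.39).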

How the data were processed

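RNA of secondary follicles from 3 young and 3 old samples was measured on Affymetrix 3' expression arrays. The authors normalized the scans with RMA (version not given in the sources used here). They deposited intensity values on a linear scale from 2.62 to 13880. Log2 was taken without a pseudocount. The design had assumed that log values might be deposited. Of 45101 probe sets, 34945 had 1 gene symbol, 932 had several, 9211 were not listed and 64 were controls, some of which carry a symbol. Symbols were updated through RefSeq names of GRCm38.p6 (18032 of 18194 gene IDs). Limma 3.58.1 in R 4.3.3 was fitted over 18193 genes, each by its brightest probe set, and again over all probe sets (two-sided, Benjamini-Hochberg). SAM, which the paper used, was not run. Levels were not compared between genes. The steps were tested on simulated data. Arrays have no depth, and their number limits the precision.

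The members and lists were chosen with earlier results of these data known. Beside the members, the text names the 3 genes of each list with the smallest p, any past a fold of 2 and the 3 genes most like each member. Other called genes of short lists and receptors or markers named by role were chosen after their values were seen. A dim gene is one whose mean lies below the median of all probe sets. Markers Npm2, Oog1, Cyp19a1, Insl3 and Lhcgr and list genes Etv1 and Eno1 were not analysed here. As alternatives, each sample was left out in turn, dim genes were filtered, the replicate number was a block, arrays were weighted, and the rule for probe sets, the normalization and the prior were changed.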

Additional observations from a re-analysis of the deposited data

How the results depend on the processing

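Fgf8 and Bmp15 were called lower and Bmp6 was not called under all 15 alternatives, which included leaving out each sample. The 3 other rules for probe sets could move only Bmp15, since each other member had 1 probe set. Oosp1 was called only with a trended and robust prior (-0.092, adjusted p = 0.043 from limma). Gdf9 was called under every alternative but the replicate block (-0.20, adjusted p = 0.067 from limma over genes and 0.084 over probe sets) and the removal of any 1 sample other than old replicate 2, where its change ran from -0.22 to -0.19. The labels do not say that equal numbers mark a pair. The deviations of same-numbered samples correlated at 0.05, 0.00 and 0.04 over genes, and those of other samples at -0.085 to 0.063. These values cannot tell whether same-numbered samples were handled together. The block gave 1496 genes higher and 1910 lower, against 1835 and 2422. Leaving out 1 sample gave 1137 to 1471 higher and 1478 to 2153 lower genes, the fewest without old replicate 3 (1137 and 1478) and next without young replicate 2 (1145 and 1516). With probe sets averaged, 13 genes were lower past a fold of 2, against 23.

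Relative to the median of the oocyte markers, the changes of Gdf9, Bmp6, Fgf8 and Oosp1 were 0.019, 0.27, -0.48 and 0.13, against 0.10, 0.35, -0.40 and 0.21 with the mean. Relative to granulosa cell markers, those of Gdf9, Bmp15, Bmp6, Fgf8 and Oosp1 were -0.22, -0.65, 0.033, -0.72 and -0.11. Leaving out 1 sample kept the direction relative to the mean of the oocyte markers, with Bmp15 between -0.43 and -0.19. Of 78 other named genes, 1165 values were recomputed, and 1023 kept their direction and call. Without shared probe sets Fgfr1 was at 0.23, Hmgcs1 at -0.067, Twsg1 at 0.038 and Vps50 at 0.08, and by the brightest probe set on the young arrays Fst was at -0.13 and Oxct1 at -0.27. Oxct1 was at -0.077 with probe sets averaged. Bmpr1b, not called, was at 0.033 after quantile and 0.032 after cyclic loess normalization, and from -0.0305 to 0.00049 (without young replicate 2) when 1 sample was left out. Bmpr2, not called, ran from -0.013 (without young replicate 1) to 0.085. The cause of these shifts was not tested. The leave-one-out values of the control probe sets were chosen after seeing the data and ran from 1.03 to 1.05 for Gapdh and from 1.04 to 1.08 for beta-actin.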
